A study of Rattus norvegicus with 2 samples.

Results

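The genes described here are 9 components of the intestinal tight junction: the claudins Cldn2, Cldn3, Cldn4, Cldn7, Cldn15 and Cldn23, occludin (Ocln), and the scaffold genes Tjp1 and Tjp3. They were taken by symbol from the 32883 genes of the deposited count tables, and each symbol had 1 Ensembl identifier. Both libraries came from jejunal epithelium of untreated male Sprague Dawley rats, an outbred laboratory strain, aged 6 to 8 weeks and fasted the night before. The proximal jejunum was cut open, loosened in EDTA and digested to single cells with dispase, and each of the 2 rats gave 1 droplet library with 3′ chemistry. There is 1 condition, so cell types are compared, and each rat counts as 1 replicate (n = 2).

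Tight junctions seal the gap between neighbouring epithelial cells near their apical border and set which ions and molecules can pass between the cells. Claudins form the strands of the junction: some, such as claudin-2 and claudin-15, make pores for small cations and water, and others mainly tighten the seal. Occludin is a further membrane protein of the strands, and the zonula occludens proteins, encoded by Tjp1 (ZO-1) and Tjp3 (ZO-3), tie the strands to the actin cytoskeleton. In the small intestine, cells are born in the crypt and move up the villus, so that junctions are rebuilt as enterocytes mature and as secretory cells differentiate.

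Rat 1 held 12033 barcodes with 99986348 UMIs (unique molecular identifiers, 1 for each captured transcript), of which 5988 barcodes passed the limits on depth and mitochondrial content. Rat 2 held 8252 barcodes with 66469907 UMIs, of which 2230 passed. The libraries shared 28 barcodes, 4 of them among the retained cells. Cells were clustered with the junction genes left out of the clustering, and clusters were named by marker genes. Rat 1 gave 1154 crypt-like cells, 4027 enterocyte-like cells, 190 secretory progenitor-like cells, 162 goblet-like cells, 21 enteroendocrine cell (EEC)-like cells, 13 tuft-like cells and 7 cells like CFTR high expressers (CHEs), the rare CFTR-rich cells that the study was about. Rat 2 gave 27, 1140, 17, 138, 11, 119 and 73 cells of these classes, so that the crypt value of rat 2 and the tuft, EEC and CHE values of rat 1 rest on few cells. Each rat's enterocytes were divided into early, mid and mature tertiles by a villus program score, the mean log-normalized level of 12 villus genes. The upper cut stood at 2.53 in rat 1 and 2.86 in rat 2, and the early tertile of rat 2 overlapped the mid tertile of rat 1 on that score. Cells within 0.05 of a cut made up 12.4% of the enterocytes of rat 1 and 15.6% of those of rat 2. A cluster of 98 and 28 cells with both goblet and enterocyte markers entered no class, and clusters of 36 and 24 and of 23 and 53 cells stayed unnamed.

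The named classes carried their markers. Levels are given as CPM, the UMIs of a gene in every 1000000 UMIs of a class in a rat, for rat 1 and then rat 2. Tuft markers summed to 1507 and 3847 CPM in the tuft class of rats 1 and 2, CHE markers to 2429 and 3574 in the CHE class, and EEC markers to 21097 and 56917 in the EEC class. The tuft class also carried enterocyte markers at 15910 and 33136 CPM, and the EEC class carried goblet markers at 6729 and 14515. The erythroid cluster, 30 and 244 cells, should lack epithelial junctions and was taken as the background of free RNA. In rat 1 it also carried Paneth markers at 106887 CPM, against 3.80 in rat 2, and their part in the background of rat 1 was not tested. The cluster removed as immune, 226 and 295 cells, was also planned as a background but is not used as one below. Its levels were higher, with Cldn4 at 64.8 and 133 and Cldn15 at 249 and 81.4. It carried enterocyte markers at 71093 and 26973 CPM.

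In a 3′ library each captured transcript gives 1 UMI whatever its length, so the levels count molecules without a length correction. Differences are log2 fold changes from the edgeR quasi-likelihood test on the 18 sums of 9 classes and 2 rats, scaled by TMM (trimmed mean of M values), with their SE and with p adjusted over 10140 genes. All 9 junction genes passed the filter on low counts. Pooled RNA cannot tell fewer cells with a transcript from less of it in each cell, and for that reason shares of cells are given where they help. Those shares are of cells thinned to 5000 UMIs.

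Upstream sequences are shown for Cldn7 and Ocln, which rose together from crypt to mature enterocyte, and for Cldn15, which moved differently. RefSeq promoters on the GRCr8 build, 250 bases before to 50 after the annotated start, matched 6 of the 9 genes, and Cldn2, Cldn4 and Cldn23 were not matched. The counts themselves were made on rn6. Capitals mark the E-box CAGGTG (or CACCTG), the GC box GGGCGG (or CCGCCC) and the AP-1 site TGANTCA, read on both strands.
Cldn7, GRCr8 chr10:55188420-55188719, plus strand: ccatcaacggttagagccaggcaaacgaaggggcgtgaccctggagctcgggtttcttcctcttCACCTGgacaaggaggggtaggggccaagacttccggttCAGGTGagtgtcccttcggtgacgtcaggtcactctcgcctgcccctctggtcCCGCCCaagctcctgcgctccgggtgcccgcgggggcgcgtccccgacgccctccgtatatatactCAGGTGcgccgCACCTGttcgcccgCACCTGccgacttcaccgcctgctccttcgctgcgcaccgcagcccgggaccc
Ocln, GRCr8 chr2:33441149-33441448, minus strand: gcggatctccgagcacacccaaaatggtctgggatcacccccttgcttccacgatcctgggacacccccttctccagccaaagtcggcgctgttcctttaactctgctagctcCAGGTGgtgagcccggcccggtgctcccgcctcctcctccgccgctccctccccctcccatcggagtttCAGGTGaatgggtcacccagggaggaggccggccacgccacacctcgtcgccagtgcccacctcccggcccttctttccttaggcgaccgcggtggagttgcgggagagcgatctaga
Cldn15, GRCr8 chr12:25343576-25343875, minus strand: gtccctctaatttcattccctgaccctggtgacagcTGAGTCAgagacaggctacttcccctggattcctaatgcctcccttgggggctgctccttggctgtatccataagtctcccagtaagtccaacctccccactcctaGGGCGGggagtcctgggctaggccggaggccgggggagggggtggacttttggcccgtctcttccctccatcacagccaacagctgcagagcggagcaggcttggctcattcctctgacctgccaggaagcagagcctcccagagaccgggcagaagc
The Cldn7 window held 5 E-boxes, the Ocln window 2 and the Cldn15 window none. Of the other matched windows, those of Cldn3 and Tjp3 held 1 each and that of Tjp1 none. Between crypt and mature cells Tjp1 passed as higher, and Cldn3 and Tjp3 did not pass. A link between E-boxes and these calls was not tested. At least 1 such E-box stood in 18.8% of 33469 RefSeq rat promoters of the same length. The AP-1 letters of the Cldn15 window stood in 7.33% of promoters. The GC box, in the Cldn7 and Cldn15 windows and also in those of Cldn3 and Tjp3, stood in 33.1%. The TATA box TATAAA, the GATA site AGATAA, the HNF4 element CAAAGTCC and the CDX site TTTATG were also searched and stood in none of the 6 windows; they were found in 14.2%, 11.6%, 1.4% and 12.7% of promoters. Such matches describe the letters only.

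Cldn2 and Cldn4 lay at opposite ends of the crypt-villus axis. Cldn2, which encodes a cation and water pore typical of crypts and leaky epithelia, stood at 58.1 and 59.3 CPM in crypt-like cells. It was at 17.2 and 16.1 in early, 7.17 and 1.19 in mid, and 1.50 and 0.462 in mature enterocytes, so that both rats fell at each step and the crypt values lay above those of every other class in both rats. From crypt to mature enterocyte the fall was 4.87 on the log2 scale (SE 1.21, adjusted p = 0.00623), with differences of -4.40 and -5.14 in the 2 rats. In this comparison 46.1% of all genes tested passed the threshold, and 5 of the 9 junction genes did, 4 higher and 1 lower. Within the crypt class, Cldn2 was at 90.8 and 65.4 in the cluster led by Olfm4 and defensin genes (180 and 8 cells), against 26.6 and 9.25 in the cluster led by Ube2c and other mitotic genes (300 and 5 cells). The order of the crypt clusters was not the same in the 2 rats: in rat 2 another one was the highest, at 121.6 from 17 UMIs in 7 cells, where rat 1 had 60.8. A Cldn2 UMI was seen in 24.2% of crypt-like cells of rat 1 (exact 95% interval 21.7% to 26.8%) and 18.5% of rat 2, and in 0.82% and 0.26% of mature enterocytes. In erythroid cells it had 0 UMIs in both rats.

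In goblet, EEC, tuft and CHE cells Cldn2 was at or near 0. EEC-like and CHE-like cells had 0 Cldn2 UMIs in both rats, which in the best covered of these sums, the CHEs of rat 2, allows up to 3.04 CPM. Goblet-like cells had 2 UMIs in rat 1 and 0 in rat 2, and tuft-like cells 1 and 0. No fold is given against these 4 classes, whose counts reached at most 2 UMIs. The rats differed in secretory progenitors, at 37.7 CPM (157 UMIs) in rat 1 and 0 UMIs in rat 2, where 17 cells allow up to 7.45.

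Cldn4, which encodes a sealing claudin, was at or below the erythroid background in crypts and rose late. Its level was 6.93 and 19.1 CPM in crypt-like cells and 4.82 and 20.4 in early enterocytes, against 23.3 and 18.5 in the erythroid cells. Mid enterocytes had 8.90 and 135, and mature enterocytes 415 and 1368, above every earlier absorptive class of the same rat. The rise from crypt to mature enterocyte was 7.48 (SE 1.83, adjusted p = 0.00467) and that from early to mature enterocyte 6.98 (SE 1.75, adjusted p = 0.0368), with rat differences of 6.999 and 6.92 in the latter. Immune markers were at 2151 and 983 CPM in mature and 72.02 and 142 in early enterocytes. That list includes Cd74, which was among the leading genes of an enterocyte cluster of 977 and 266 cells. Ptprc, another gene of the list, was at 0.90 and 4.62 in mature and 1.27 and 3.58 in early enterocytes. In the immune cluster it was at 38.9 and 502. The list also holds the leukocyte genes Ccl5, Cd3e, Cd3g and Cd79a, whose levels are not given singly here. The part of immune markers in the Cldn4 rise was not tested. The low end of both contrasts is at the erythroid level, and the part of free RNA in these folds was not tested. Both calls were lost when cells were limited to 20% mitochondrial UMIs (log2 fold changes 3.26 and 4.63, adjusted p = 0.172 and 0.132), and the median mitochondrial share of the mature tertile was 13.5% and 28.2%. The early to mature call was also lost without an upper limit on genes per cell (adjusted p = 0.11) and in cells thinned to 5000 UMIs (adjusted p = 0.0517).

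Deciles of each rat's enterocytes, ordered by score, placed the Cldn4 rise in the last steps. In rat 1 the lowest decile had 4.00 CPM, the eighth 45.9, the ninth 194 and the highest 1197. In rat 2 the lowest decile had 8.71, the fifth 83.9, the eighth 979.8 and the highest 2040. The rise came earlier in the rank order of rat 2. Enterocytes scoring 2.5 to 3 had 228 and 280.3 CPM. Above a score of 3 rat 1 was the higher, at 3281 against 1660. A cluster of 176 and 204 enterocytes led by Ada and Slc28a2, genes of purine handling at the villus tip, held Cldn4 at 2915 and 2305. Cldn4 was among the leading genes of this cluster, although it had no part in forming it. A Cldn4 UMI was seen in 31.1% and 92.1% of mature enterocytes and in 3.33% and 9.02% of erythroid cells.

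**Figure D1:**
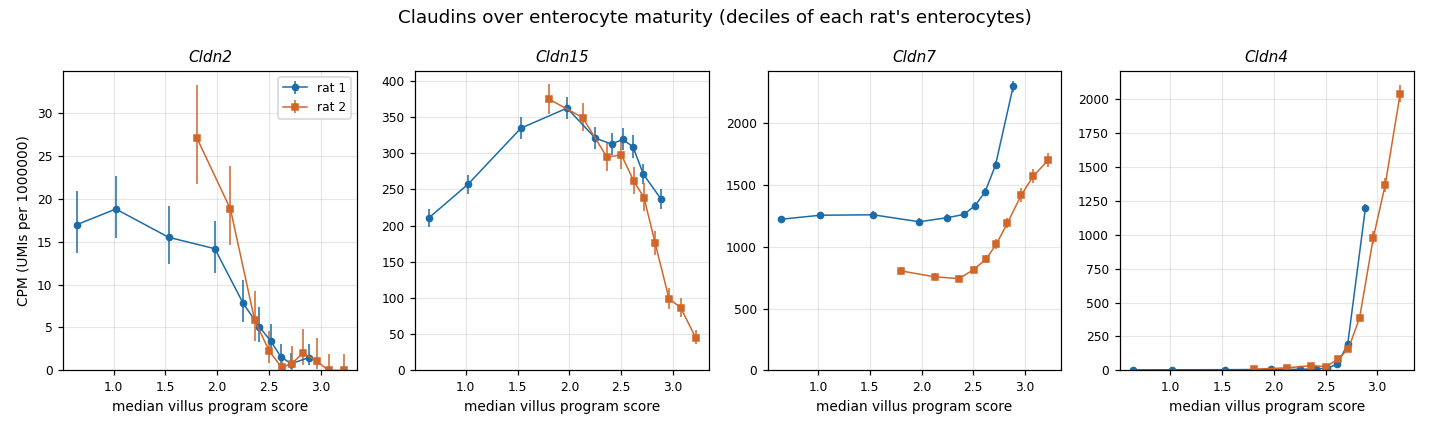
Level of 4 claudins (CPM, vertical axis) in deciles of the enterocyte-like cells of rat 1 (circles) and rat 2 (squares), placed at the median villus program score of each decile; bars are exact 95% Poisson intervals. Cldn2 falls to near 0, Cldn15 falls from its peak and Cldn4 rises steeply, to 1197 and 2040 in the highest decile.

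Cldn15, the other pore-forming claudin of the small intestine, peaked between these genes. It stood at 145 and 163 CPM in crypts, 281 and 339 in early, 326 and 245 in mid, and 277 and 85.6 in mature enterocytes. In rat 1 the highest decile of enterocytes was the fourth, at 362, and the last decile had 237. In rat 2 the first decile was the highest, at 375, and the last had 44.8. Cells scoring 1.5 to 2 had 365 and 394 and those above 3 had 160 and 69.5, so that both rats were lower at the high end and rat 2 more so. Neither the difference from crypt to mature (1.15, SE 0.76, adjusted p = 0.227) nor that from early to mature (-0.14, SE 0.74, adjusted p = 0.933) passed the test. In the latter the rats had opposite signs, at 0.67 and -1.11, and their tertiles cover different score ranges.

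Cldn7, a claudin found along the whole lateral membrane of intestinal cells, was the most abundant of the 6 claudins in 16 of the 18 sums. It was at 955.6 and 774 CPM in crypts and 1747 and 1527 in mature enterocytes, a rise of 1.94 (SE 0.53, adjusted p = 0.00874) with differences of 1.53 and 2.39 in the 2 rats. The erythroid background was 132 and 42.9. In rat 1 its first 7 deciles of enterocytes lay between 1202 and 1332, and the highest decile reached 2299, while rat 2 rose from 742 in decile 3 to 1699 in its highest. Cldn3, a sealing claudin, was at 412 and 439.8 in crypts and 419 and 368 in mature enterocytes, and did not pass the test (0.92, SE 0.59, adjusted p = 0.216). Cldn23, a claudin of differentiated intestinal cells, was at 28.3 and 28.7 in crypts and 34.1 and 51.9 in mature enterocytes (1.68, SE 0.83, adjusted p = 0.109).

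Ocln stood at 49.0 and 44.0 CPM in crypts and 65.8 and 114 in mature enterocytes, a rise of 2.05 (SE 0.64, adjusted p = 0.017). Tjp1 was at 37.0 and 21.0 in crypts and 27.0 and 52.5 in mature enterocytes, and its log2 difference was 1.49 (SE 0.56, adjusted p = 0.0413). Its plain level was lower in the mature cells of rat 1 and higher in those of rat 2, and the per-rat differences after scaling were 0.20 and 2.70. Tjp3 was at 38.9 and 72.7 in crypts and 30.4 and 55.7 in mature enterocytes (0.81, SE 0.75, adjusted p = 0.397).

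These smaller differences depended on how the sums were scaled. Enterocyte markers made up 162315 and 124119 CPM of the mature class, and TMM gave that class factors of 0.735 and 0.508. Without TMM the median log2 difference of all genes between mature and crypt cells moved from -0.32 to -1.31, and the share of higher genes among all called from 40.5% to 18.7%. The differences were then 0.92 for Cldn7, 0.94 for Ocln and 0.39 for Tjp1, none of which passed (adjusted p = 0.131, 0.142 and 0.518), while the calls for Cldn2 (-5.77) and Cldn4 (6.27) held. Tjp1 also missed the threshold at the 20% mitochondrial limit (adjusted p = 0.134) and in thinned cells (adjusted p = 0.0532). The median over the 9 junction genes was 1.49 with TMM.

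Between the early and the mature tertile only Cldn4 passed the threshold, 1 of 9 junction genes beside 5.66% of all genes. With the rat as a block, which pairs classes of the same animal, 2889 genes passed in place of 574, and so did 4 junction genes: Cldn4, Cldn2 (-3.68, adjusted p = 0.00594), Cldn7 (1.52, adjusted p = 0.0176) and Ocln (1.26, adjusted p = 0.0461). Without TMM the share of higher genes among those called went from 46.7% to 12.5%, and Cldn2 (-3.96, adjusted p = 0.0409) passed beside Cldn4. The direction of these 4 genes was the same in both rats and in every setting tried.

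**Figure D2:**
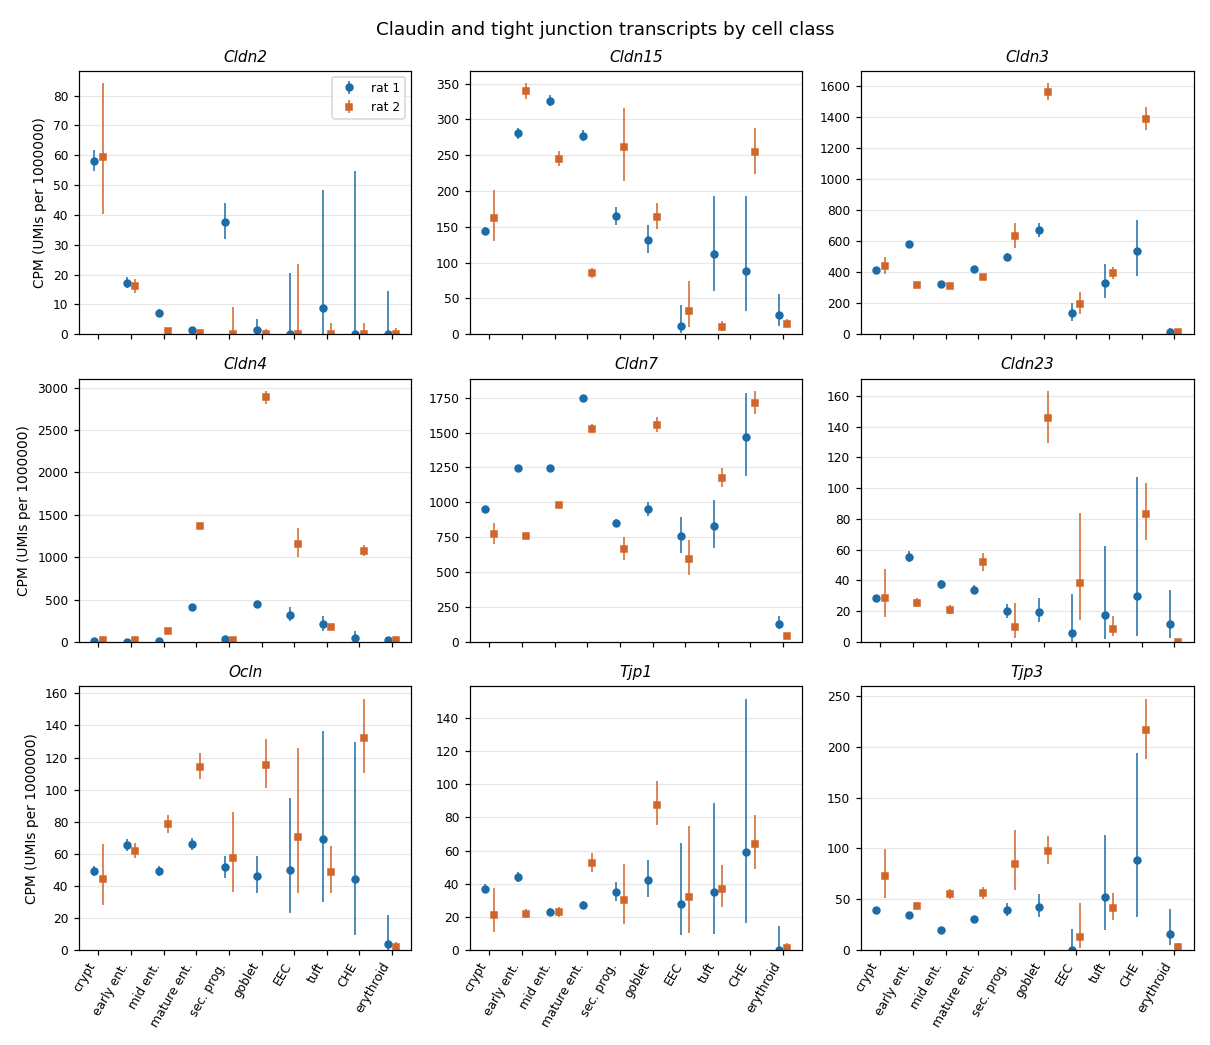
Level of the 9 junction genes (CPM, vertical axes from 0) in each cell class of rat 1 (circles) and rat 2 (squares), with exact 95% Poisson intervals; the erythroid cluster gives the free RNA background. Cldn2 is highest in crypts at 58.1 and 59.3, Cldn4 is at 448 and 2882 in goblet-like cells, and Cldn15 is near the background in EECs.

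Goblet-like cells, which make the mucus layer, had the highest level of Cldn3 in each rat, and of Cldn4 in rat 2. In rat 1 Cldn4 was at 448 (exact 95% interval 413 to 485) against 415 (405 to 425) in mature enterocytes, and with TMM scaling mature enterocytes were the higher, at 565 against 478. Cldn4 stood there at 448 and 2882 CPM, 4.01 above the mean of the 3 enterocyte classes on the log2 scale (SE 1.00, adjusted p = 0.00827), with rat differences of 4.00 and 4.02. That mean includes the early enterocytes, whose Cldn4 was at 4.82 and 20.4, against 23.3 and 18.5 in erythroid cells. Cldn3 stood at 669 and 1561, a difference of 1.49 (SE 0.45, adjusted p = 0.0222) that was 0.60 in rat 1 and 2.06 in rat 2. These 2 of 9 genes passed, beside 27.5% of all genes tested, and both were higher. Enterocyte markers were at 2706 and 2978 in this class, against 162315 and 124119 in mature enterocytes, and hemoglobin was at 1406 and 1145, against 68.1 and 66.5. Their part in the Cldn4 level was not tested. Cldn4 missed the threshold at the 20% mitochondrial limit (3.19, adjusted p = 0.0781) and without an upper limit on genes (3.09, adjusted p = 0.0511). Cldn3 missed it in 4 of 13 settings, with differences of 1.05 to 1.55 over all of them.

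The goblet class was made of 2 clusters that differed in claudins. The cluster led by Zg16 and Fcgbp, genes of mature mucus secretion, had 50 and 107 cells and Cldn4 at 1306 and 3982 CPM. The cluster led by Spink4 and Clca1, with 112 and 31 cells, had Cldn4 at 94.5 and 88.8. Cldn7 differed in the same direction, 1563 and 1959 against 696 and 529, and so did Cldn3 (949.9 and 1890 against 554 and 725) and Cldn23 (49.9 and 197 against 7.19 and 14.2). Cldn15 was lower in the Zg16 cluster, 107 and 125 against 142 and 263. These are 2 clusters per rat and were not tested. The rats took different shares of their goblet cells from each cluster, and the part of that mix in the gap between rats in the goblet class, such as Cldn23 at 19.6 and 145, was not tested. Stem and Paneth markers were also in the class: stem markers were at 358 and 82.2, and Paneth markers at 760 and 1466.

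Other genes did not pass between goblet-like cells and enterocytes. Tjp1 was at 42.2 and 87.8 (0.98, SE 0.43, adjusted p = 0.102), Tjp3 at 42.2 and 97.3 (0.69, SE 0.58, adjusted p = 0.418), and Ocln at 45.8 and 115 (0.08, SE 0.50, adjusted p = 0.947). Without TMM, Tjp1 also passed (1.07, adjusted p = 0.0484). Cldn15 was at 132 and 164 (-0.83, SE 0.64, adjusted p = 0.373). Secretory progenitor-like cells, which carry goblet and cycling markers, had Cldn4 at 34.9 and 24.8, against 6.93 and 19.1 in crypts, and Cldn15 at 165 and 261, against 145 and 163. These differences were not tested.

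EEC-like cells, the hormone-producing cells, had almost no Cldn15 and the least Cldn3. Their 6 claudins summed to 1228 and 2020 CPM. The sums were 2185 and 1477 in early, 1945 and 1694 in mid, and 2895 and 3401 in mature enterocytes. The EEC sum was thus below every enterocyte class in rat 1, and below only the mature class in rat 2. Cldn15 was at 11.1 and 32.1, from 2 and 5 UMIs, against 27.2 and 14.7 in erythroid cells, so that it was not detectable above the background. It was the 1 of 9 junction genes that passed against enterocytes (-3.88, SE 0.90, adjusted p = 0.00663), beside 19.8% of all genes, and it kept that call in all 12 settings that formed the class. Cldn4 was at 322 and 1161 in 61.9% and 81.8% of EECs, and its difference from enterocytes, 2.48 (SE 1.02), missed the threshold (adjusted p = 0.104).

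With the rat as a block, 4 further genes passed in EECs. Cldn4 was then higher by 2.83 (adjusted p = 0.00284), Cldn3 lower by a log2 difference of -1.59 (adjusted p = 0.0166) and Cldn7 by -1.14 (adjusted p = 0.0391). Tjp3 passed as lower (adjusted p = 0.00456) on 0 and 2 UMIs, too few for a fold. Cldn3 stood at 133 and 192, the lowest of the 9 classes in each rat. Cldn7 stood at 756 and 596, which was the lowest in unscaled CPM, while with TMM scaling EECs (818 and 550) were above secretory progenitors (719.5 and 529) in both rats. Of all genes called in EECs the higher share was 60.9%, against 73.1% without TMM, where Cldn4 passed beside Cldn15 (3.01, adjusted p = 0.0335).

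Tuft-like cells, the chemosensory cells of the epithelium, had less Cldn15 than enterocytes in both rats, but little of it only in rat 2. It was at 113 CPM in rat 1, from 13 cells and above the erythroid value of 27.2. In rat 2 it was at 9.52, from 119 cells and below the erythroid value of 14.7. The difference from enterocytes was -3.12 (SE 0.82, adjusted p = 0.0113), with -2.01 and -5.00 in the 2 rats, and it was kept in all 13 settings. This was again 1 of 9 junction genes, beside 26.8% of all genes. In rat 2 a Cldn15 UMI was seen in 4.20% of tuft-like cells and 7.38% of erythroid cells, and in 61.1% of mid enterocytes. In rat 1 these shares were 38.5%, 13.3% and 79.7%. The tuft class of rat 1 had Olfm4 at 424 and Mki67 at 260 CPM, against 0 and 69.8 in rat 2, and their part was not tested. The tuft class of rat 2 also carried enterocyte markers (Alpi, Apoa1, Apoa4 and Fabp1) at 33136 and hemoglobin at 3096 CPM. Si, Lct, Slc2a2 and Slc5a1, other genes high in enterocytes, were at 9.52, 29.6, 10.6 and 5.29 there. In rat 2 they were at 697, 1730, 415 and 127 in mid enterocytes and at 9.23, 39.6, 8.69 and 4.89 in erythroid cells. The part of carried-over RNA in the Cldn15 level was not tested.

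Cldn23 stood at 17.3 and 8.46 in tuft-like cells, from 2 and 8 UMIs (-2.43, SE 0.95, adjusted p = 0.0698), and passed with the rat as a block (-2.64, adjusted p = 0.0335). Cldn7, at 831 and 1175, was the main claudin of tuft cells, with 55.2% and 66.5% of their claudin UMIs. Cldn4 was at 208 and 180, the class where the 2 rats were closest for this gene among those above the background, and its difference from enterocytes did not pass (0.26, SE 1.12, adjusted p = 0.904; 2.31 and -0.52 per rat). Without TMM the share of higher genes among those called in tuft cells went from 63.7% to 82.1%, and the median of all genes from 0.26 to 0.87; Cldn15 was still lower.

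CHE-like cells had high claudin levels in rat 2 and too few UMIs for most genes in rat 1, where the class held 7 cells and 67531 UMIs and 1 UMI weighs 14.8 CPM. Tjp3, the ZO-3 scaffold, was highest in this class in each rat, at 88.8 (6 UMIs) and 216. Its difference from enterocytes was 1.64 (SE 0.58, unadjusted p = 0.013, adjusted p = 0.0799), with 1.08 and 1.69 per rat. Cldn3 was at 533 and 1389 and Cldn7 at 1466 and 1714. Cldn4 was at 44.4, from 3 UMIs, and 1075 (2.28, SE 1.01, adjusted p = 0.166), and the differences were 0.13 in rat 1 and 2.39 in rat 2.

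None of the 9 junction genes passed between CHEs and enterocytes by edgeR or by DESeq2, beside 13.2% of all genes by edgeR, and 3 had an unadjusted p below 0.05 in edgeR: Tjp3, Cldn4 and Cldn3. With the rat as a block 2030 genes passed in place of 1335, among them Tjp3 (1.54, adjusted p = 0.00382) and Cldn4 (2.09, adjusted p = 0.0261). With maturity tertiles taken over both rats together the same 2 genes passed, at 1.77 and 3.23. Without TMM the share of higher genes among those called moved from 50% to 70.7%, and Tjp3 (2.05, adjusted p = 0.0166) and Cldn3 (1.35, adjusted p = 0.0482) passed. Cldn15 in CHEs was at 88.8 and 255 (-0.76, SE 0.65, adjusted p = 0.531), unlike the near-background values of EECs and of the tuft cells of rat 2; the difference between these classes was not tested. Enterocyte markers were at 5360 and 1713 in CHEs.

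**Figure D3:**
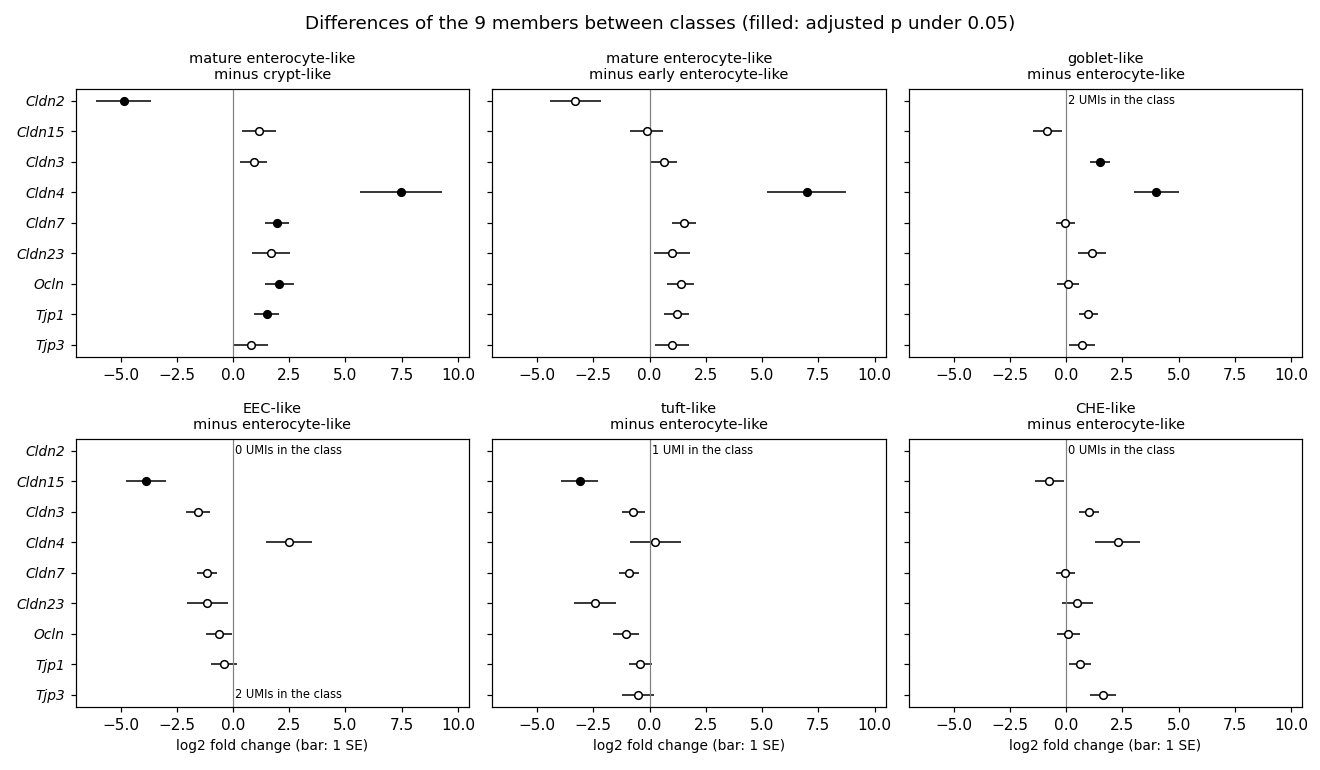
Log2 fold changes of the 9 junction genes in 6 comparisons (horizontal axis, TMM-scaled edgeR estimates, bars of 1 SE), with filled points for adjusted p under 0.05. The filled points are Cldn2, Cldn4, Cldn7, Ocln and Tjp1 against crypt, Cldn4 against early enterocytes, Cldn4 and Cldn3 in goblet-like cells, and Cldn15 in EEC-like and tuft-like cells; genes with at most 3 UMIs in the class have no point.

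The make-up of the claudin pool followed these differences. Cldn7 held 59.5% and 52.2% of claudin UMIs in crypts and 60.4% and 44.9% in mature enterocytes. Cldn4 held 0.43% and 1.29% in crypts, 14.3% and 40.2% in mature enterocytes, 20.2% and 45.7% in goblet-like cells, and 26.2% and 57.5% in EECs. In goblet-like cells and EECs of rat 2 it was thereby the leading claudin. Cldn3 held 30.2% and 24.7% in goblet-like cells. Cldn2 and Cldn15 together, the pore formers, held 12.6% and 14.95% in crypts, 13.6% and 24.1% in early, 17.15% and 14.5% in mid, and 9.635% and 2.53% in mature enterocytes.

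After thinning, the median cell had 3 of the 6 claudins in 13 of the 18 sums. It had 2 in EECs of both rats and in tuft cells of rat 2, and 4 in goblet-like cells and CHEs of rat 2. A median erythroid cell had 0. Rat 2 was above rat 1 in Cldn4 in crypts and in all 3 enterocyte classes and in goblet, EEC and CHE cells, and below it in secretory progenitors and, in unscaled CPM only, in tuft cells. The rats also differed in the software version behind their tables and in mitochondrial content, and these cannot be told apart from the animal.

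**Figure D4:**
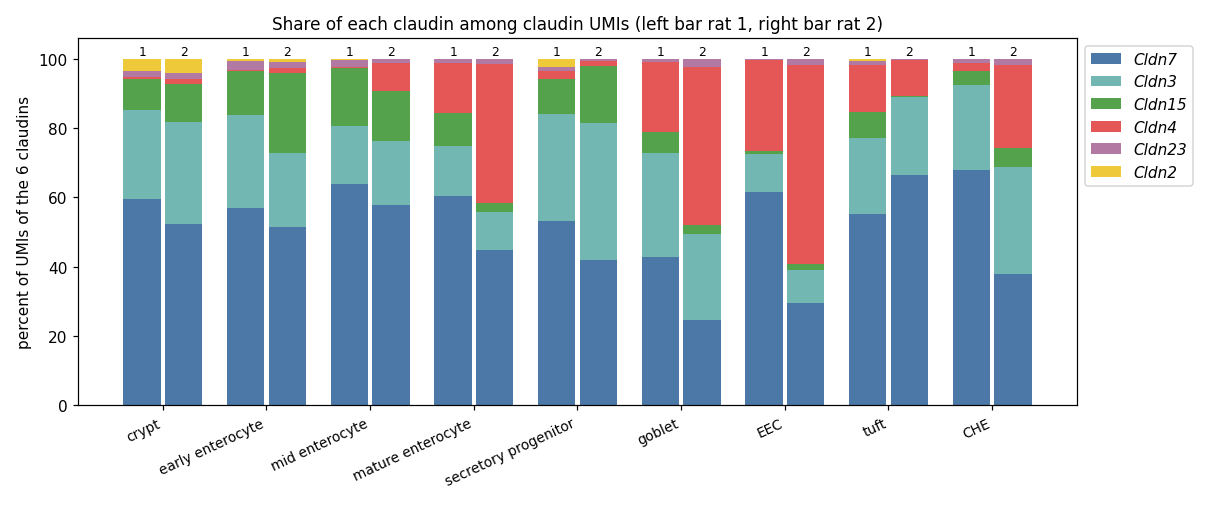
Share of each of 6 claudins among their summed UMIs (percent, stacked bars from 0 to 100) by cell class, left bar rat 1 and right bar rat 2. Cldn4 takes 0.43% and 1.29% of the pool in crypts, 14.3% and 40.2% in mature enterocytes and 26.2% and 57.5% in EECs.

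Order of levels was shared by the rats only in places. For Cldn2, crypts stood above all other classes in both. For Cldn15, the goblet class stood above the tuft class in both, and the lowest class was EECs in rat 1 and tuft cells in rat 2. For Cldn3, EECs were last in both rats, and for Tjp3 EECs were last and CHEs first. Most other neighbours in the order by mean level changed places between the rats. Over the 18 sums, log2 levels of Cldn7, Ocln and Tjp1 went together (Pearson r 0.76 to 0.78 for the 3 pairs), and those of Cldn2 and Cldn4 ran against each other (r = -0.66). These sums share libraries, depth and scaling, so the values are descriptive. By the same measure, the genes most like Cldn4 among 4798 candidates were Ypel3 (0.95), AABR07044441.1 (0.92) and Btg2 (0.90), and those most like Cldn2 were Dld (0.90), Psmd12 (0.87) and Ndufb10 (0.86). Cldn7 was most like Perp, a gene of cell adhesion (0.93), Cldn15 most like Npepl1 (0.87), Cldn23 most like Tacc2 (0.87), Ocln most like Coro1c (0.93), Tjp1 most like Jun (0.88) and Tjp3 most like Pkp4 (0.93).

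Of 44 other tight junction genes, 24 were tested, and 13 were higher and 4 lower in mature enterocytes than in crypts, beside the 46.1% of all genes called. The list median was 1.68, against -0.32 for all genes. Those that rose most were Pard6b of the polarity complex and F11r, which encodes junctional adhesion molecule A. F11r stood at 50.9 and 59.3 CPM in crypts and 193 and 358.5 in mature enterocytes (3.46, SE 0.82, adjusted p = 0.00399), and Pard6b at 6.87 and 13.4 and then 42.8 and 76.2 (3.83, SE 1.03, adjusted p = 0.00881). Ybx3, which encodes ZONAB, a partner of ZO-1 that also acts in the nucleus, went the other way, from 266 and 315.5 to 8.95 and 3.39 (-4.60, SE 0.64, adjusted p = 0.000333). Without TMM the list had 4 higher and 5 lower genes and a median of 0.63. The untested remainder had few UMIs: the highest was Cldn8, with 38 and 5 UMIs over all classes, and Cldn1 had 4 and 2.

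Between early and mature enterocytes 1 of these 24 genes passed, beside 5.66% of all genes. It was Ybx3, at 92.9 and 23.6 in early cells (-2.44, SE 0.58, adjusted p = 0.0336). With the rat as a block there were 7 higher and 1 lower. Ildr1, which encodes angulin-2 of the corners where 3 cells meet, was at 0.18 to 0.952 CPM in the enterocyte sums. It reached 43.3 and 204 in tuft cells, 29.6 (2 UMIs) and 53.8 in CHEs, 16.7 and 12.8 in EECs (3 and 2 UMIs), and 10.9 and 20.6 in goblet-like cells, with crypts at 2.99 and 7.65. Its log2 differences from enterocytes were 7.36 in tuft cells (SE 0.58, adjusted p = 7.8e-07), 6.09 in CHEs (SE 0.61, adjusted p = 1.18e-05), 4.80 in goblet-like cells (SE 0.58, adjusted p = 3.18e-05) and 4.47 in EECs (SE 1.09, adjusted p = 0.00956). Lsr, which encodes the related angulin-1 and was chosen after its values were seen, was at 89.0 to 195.5 in enterocytes and 95.3 to 391 in these 4 classes, and passed in none of the 4 comparisons.

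Mylk, the myosin light chain kinase that contracts the ring below the junction, was the reverse of Ildr1. It was at 109.5 and 112 in early enterocytes and at 2.18 and 0.50 in goblet-like cells, 11.1 and 0 in EECs, 17.3 and 7.40 in tuft cells and 0 and 6.09 in CHEs. It passed as lower in all 4 classes, by -3.53 in tuft cells (adjusted p = 0.00578). In goblet-like cells (adjusted p = 0.000218) the UMIs were too few for a fold, as 1 UMI weighs 0.728 and 0.501 CPM there. EECs and CHEs had 2 and 6 UMIs in all. Mylk also encodes the smooth muscle form, and 3′ counts do not separate its isoforms. Of the 24 genes, 2 were higher and 1 lower in goblet-like cells (27.5% of all genes were called), 2 and 4 in EECs (19.8%), 3 and 4 in tuft cells (26.8%), and 2 and 1 in CHEs (13.2%). Without TMM the counts were 4 higher and 1 lower in goblet-like cells, tuft cells and CHEs alike, and 2 and 3 in EECs. The block moved the first of these to 5 higher and 5 lower, and those for tuft cells to 3 and 8. Amotl2, an actin-linked scaffold, was higher in tuft cells (2.52, SE 0.69, adjusted p = 0.0149), and Pard6b passed as lower in EECs on 0 UMIs in both rats. Ybx3 was higher in goblet-like cells than in enterocytes (3.73, SE 0.41, adjusted p = 1.14e-05), with 3.44 and 4.22 per rat.

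**Figure D5:**
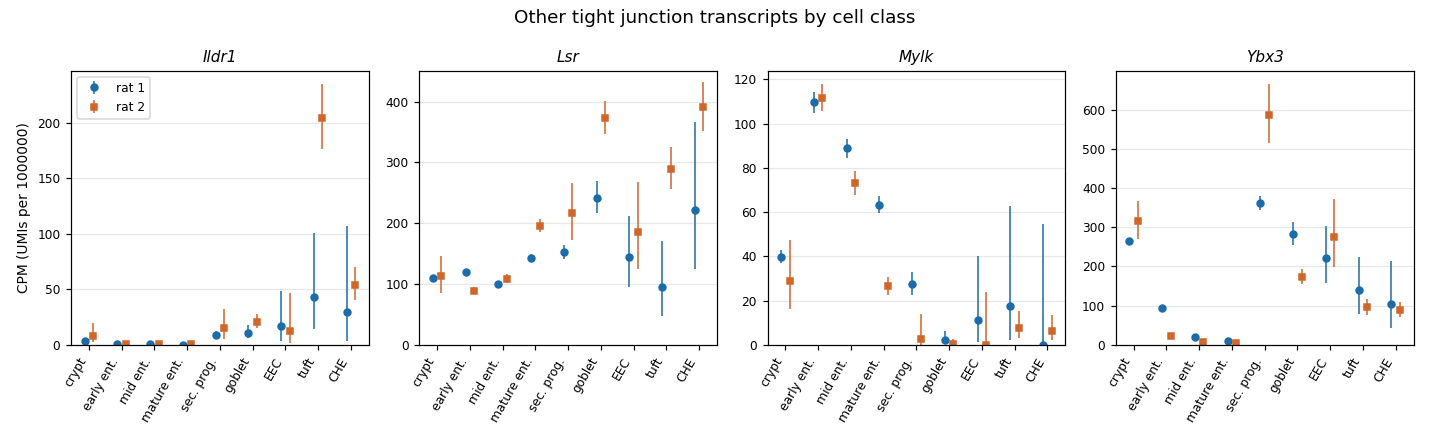
Level of 4 other tight junction genes (CPM, vertical axes from 0) by cell class in rat 1 (circles) and rat 2 (squares), with exact 95% Poisson intervals. Ildr1 is at most 0.952 in enterocytes and reaches 43.3 and 204 in tuft-like cells, while Mylk peaks in early enterocytes at 109.5 and 112.

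Of 10 adherens junction genes tested, 5 were higher and 1 lower in mature enterocytes than in crypts, beside 46.1% of all genes called, with a list median of 1.66. Those higher included Cdh17, an intestinal cadherin, at 174 and 179.7 in crypts and 888 and 966 in mature cells (3.45, SE 0.70, adjusted p = 0.00163), Nectin2 (2.88, adjusted p = 0.01) and Ctnna1, which encodes alpha-catenin (2.32, adjusted p = 0.0122). Of 7 desmosome genes tested, 4 were higher and none lower, with a median of 1.89: Dsg2 (2.96, adjusted p = 0.00652), Dsc2 (2.35, adjusted p = 0.0145), Pkp3 (2.24, adjusted p = 0.0279) and Jup. Without TMM 2 adherens junction genes and 1 desmosome gene were higher. Among secretory cells, Nectin1 was higher in goblet-like (4.15, SE 0.41, adjusted p = 3.84e-06) and tuft cells (4.12, SE 0.43, adjusted p = 9.12e-06), at 51.7 and 51.2 and at 52.0 and 84.6, against 0.462 to 7.88 in enterocytes. Evpl, which encodes the desmosomal linker envoplakin, passed as lower in goblet-like cells (adjusted p = 0.0144) on 1 and 0 UMIs, too few for a fold. In CHEs Evpl was higher, at 29.6 (2 UMIs) and 60.9 (2.59, SE 0.62, adjusted p = 0.0129). Ppl, which encodes its partner periplakin, passed too, so that 2 of 7 desmosome genes were higher there, beside 13.2% of all genes called. With the rat as a block, mature enterocytes differed from early ones in 5 higher and 1 lower adherens junction genes and 4 higher desmosome genes, where none of either list had passed without it. The block also gave 2 higher adherens junction genes, in place of 1, in goblet-like and in tuft cells, and 1 higher and 2 lower desmosome genes in EECs, in place of 0.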

How the data were processed

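The deposited values are unnormalized UMI counts, 1 table for each rat, made by the authors with Cell Ranger against rn6 per the labels. The file headers give version 3.1.0 (rat 1) and 5.0.1 (rat 2), and version and rat cannot be told apart. The members and gene lists were chosen with earlier results of these data known. As in the study's methods, cells had to hold over 200 and under 5800 genes, over 5000 UMIs and at most 40% mitochondrial UMIs. Seurat 5.3.0 (R 4.3.3) integrated the rats and formed clusters (2000 variable genes, 20 components, resolution 0.3 and then 0.5), with the junction lists left out of the variable genes. Clusters were named from marker lists by levels set after the clusters were seen, so the names are rebuilt here and may differ from the study's. Clusters with Ptprc in over 25% of cells or with high hemoglobin were removed as non-epithelial, and cells with at most 10 UMIs of epithelial markers entered no class.

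Counts were summed per rat and class (67531 to 18898709 UMIs per sum) and tested with edgeR 4.0.16 (TMM, its default filter, quasi-likelihood test on 9 residual degrees of freedom, Benjamini-Hochberg adjustment, threshold 0.05), after a check on simulated counts. Per-rat differences use log2 CPM (prior count 2). Intervals are exact, at 95%, and with the limit that 3 UMIs set for a count of 0 they cover counting error only. Classes of a rat come from the same animal, so the rat pairs the sums: over 36 pairs of classes the rat deviations correlated at 0.067 to 0.74 (median 0.22). Doublets were kept in. Scrublet, through scanpy 1.11.5, called 116 cells of rat 1 (1.94%) and 5 of rat 2 (0.224%). Whether the caller missed doublets, above all in rat 2, was not tested. All 9 members are named, with the 3 genes of each other list with the largest called difference per comparison and the same direction in both rats, and the 3 genes most like each member, of which the text gives all for Cldn2 and Cldn4 and the first for the others, while that for Cldn3 is not reported here. The alternatives are given in the closing section. Of these, library totals without TMM, the mixed goblet and enterocyte cluster kept as goblet, and cells with few epithelial UMIs kept were added after the data were seen.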

Additional observations from a re-analysis of the deposited data

Results flagged for a closer look

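Barcodes outside the limits on cells entered no comparison. Among the 4491 barcodes of rat 1 with at most 5000 UMIs, Cldn4 stood at 149 CPM (1188 UMIs, lower exact bound 141), above the 104 of the retained cells of that rat. In rat 2 the order was the opposite, with Cldn4 at 177 in barcodes with at most 5000 UMIs and 501 in the retained cells. In barcodes with over 40% mitochondrial UMIs Cldn4 stood at 18.6 in rat 1 and 213 in rat 2, below the retained cells of each rat. These levels are taken over all UMIs, and mitochondrial UMIs make up a large part of them in such barcodes. Taken over the non-mitochondrial UMIs only, Cldn4 was at 38.2 in rat 1, against 120 in its retained cells. In rat 2 it was at 596 on that scale, close to the 634 of its retained cells.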

How the results depend on the processing

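Removing called doublets or mitochondrial genes moved no count of called genes by over 1.5 times and lost or added no call for a junction gene, and no junction gene reversed its direction against a called value in any setting. From mature to crypt, 5 junction genes passed, and 3 at the 20% mitochondrial limit and 2 without TMM. Between mature and early enterocytes 574 genes and 1 junction gene passed. There, genes and junction genes passing were 1089 and 0 at the 20% limit, 151 and 0 with no upper limit on genes, 343 and 0 in thinned cells, 1734 and 2 with tertiles over both rats, 1279 and 2 by DESeq2 1.42.0, 1778 and 2 with no filter, and 1619 and 2 without TMM. With cells of few epithelial UMIs kept, 293 genes passed. In goblet-like cells 2791 genes and 2 junction genes passed. Junction genes were 1 at the 20% limit, 0 with no upper limit on genes, and 1 with few epithelial UMIs. Genes were 1847 in thinned cells, and 1692, with 1 junction gene, with the mixed cluster kept. In EECs 1 junction gene passed, against 4 at the 20% limit, with tertiles over both rats, with the mixed cluster kept and with no filter, 3 in thinned cells (with 1255 genes), with few epithelial UMIs and by DESeq2, and 2 without TMM. With no upper limit on genes no EEC cluster formed, so that setting gives no EEC value. In tuft cells 1 passed, against 3 by DESeq2 and 2 at the 20% limit, merged without integration, with no upper limit on genes, in thinned cells, with tertiles over both rats, with the mixed cluster and with no filter. In CHEs 0 of 1335 passed, against 1 at the 20% limit, 2 with tertiles over both rats, 3 with no filter and 2 without TMM, and 884 genes passed in thinned cells. The cause of these changes was not tested.

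With the rat as a block, the junction genes passing were 4 between mature and early enterocytes (2889 genes), 5 in EECs, 2 in tuft cells and 2 in CHEs (2030 genes), and the block lost no call. Leaving out 1 rat leaves the difference of the other with no test: as log2 mature minus crypt, Cldn2 was -4.40 in rat 1 and -5.14 in rat 2, and Cldn4 was 6.48 and 7.53. Depth limits the small classes most: 1 UMI is 14.8 CPM in the CHEs of rat 1, and with 2 rats the spread between animals is itself poorly known.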
